A study of Mus musculus with 28 samples.

Results

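The genes described here carry out the last steps of peptide supply to major histocompatibility complex (MHC) class I molecules. The set holds 10 genes, chosen by symbol: Tap1, Tap2, Tapbp, Tapbpl, Psmb8, Psmb9, Psmb10, Psme1, Psme2 and B2m. For each symbol the brightest probe of that gene name was taken from the scanner files of 28 single-colour Agilent arrays. That found 9 of the 10 genes, out of 27670 gene names on the array, and all 9 were among the 22411 genes tested. No probe was named Psme2. The 2 probes named Psme2b-ps also list Psme2 transcripts, so their signal cannot be assigned to Psme2 or to its near-identical copy, and it is given once, apart from the other 9.

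The arrays measured total RNA of macrophages grown from bone marrow of C57BL6/J mice aged 8 to 12 weeks. Marrow of several animals was pooled, and the labels give 2 males and 1 female for an array. All cells, controls included, grew in human recombinant CSF1 at 200 ng/ml, the growth factor that drives marrow precursors into macrophages. From day 7 cells were left for 18 h with or without a priming cytokine, and some received LPS, a bacterial cell wall component that activates macrophages, at 10 ng/ml for the last 4 h.

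There were 3 arrays of IFN-γ plus LPS, 3 of IFN-γ alone at 100 U/ml, 4 of IL-4 plus LPS, 4 of IL-4 alone at 10 ng/ml, 7 of LPS alone and 7 of untreated cells. Arrays of a group carry different experiment letters, from A to G. Because the labels do not say which animals went into which letter, p-values measure the spread between these arrays.

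Class I molecules present peptides from the cell's own proteins to CD8+ T cells. The proteasome cuts proteins into peptides, the TAP transporter moves the peptides into the endoplasmic reticulum, and chaperones there hold an empty class I molecule until a peptide of high affinity is bound. IFN-γ, acting in part through the transcription factor IRF1, is the textbook inducer of this machinery, and it exchanges the 3 catalytic subunits of the standard proteasome for the inducible ones that define the immunoproteasome. Macrophages use the same machinery when they display peptides to T cells.

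Of the 10 genes, 8 have a promoter window in the RefSeq table of build GRCm38.p6, running from 250 bases before to 50 bases after the gene start. Tap2 and Tapbpl were named only. Psmb9 and Tap1 lie head to head on chromosome 17 and start 225 bases apart, so their windows share 275 bases, and Psmb8 and Tap2 follow directly in the order Psmb9, Tap1, Psmb8, Tap2. The window of Tap1 is shown because both genes start from it and their responses to IL-4 are set side by side below. Its capitals mark the bases between the 2 starts, at chr17:34187306-34187605 on the plus strand.
Tap1: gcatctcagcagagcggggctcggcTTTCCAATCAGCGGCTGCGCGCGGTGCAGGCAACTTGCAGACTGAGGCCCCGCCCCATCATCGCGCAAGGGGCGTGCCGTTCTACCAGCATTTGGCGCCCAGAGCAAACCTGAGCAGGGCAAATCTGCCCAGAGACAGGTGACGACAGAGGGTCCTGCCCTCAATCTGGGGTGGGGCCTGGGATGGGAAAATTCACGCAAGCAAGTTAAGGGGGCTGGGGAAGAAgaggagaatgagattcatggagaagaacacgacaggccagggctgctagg

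The remaining windows are those that hold one of 2 motifs, searched on both strands, with the matches in capitals. The motifs were the element bound by interferon regulatory factors, GAAANNGAAA, and the kappaB consensus. The first was found in 1131 of 32851 promoter windows of the mouse genome (3.44%) and the kappaB consensus in 2779 (8.46%). Psme1 (chr14:55578244-55578543, plus strand) held the interferon regulatory factor element at 10 to 19 from its start, just downstream of it and on the opposite strand.
Psme1: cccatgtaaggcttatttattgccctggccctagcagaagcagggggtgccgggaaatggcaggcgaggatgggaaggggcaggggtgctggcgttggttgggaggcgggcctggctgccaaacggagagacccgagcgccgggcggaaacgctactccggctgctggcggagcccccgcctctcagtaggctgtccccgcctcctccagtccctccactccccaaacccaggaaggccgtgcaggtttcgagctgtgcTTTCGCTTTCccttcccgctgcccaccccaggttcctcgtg
B2m (chr2:122147437-122147736, plus strand) held the interferon regulatory factor element at -139 to -130 and the kappaB consensus at -126 to -117.
B2m: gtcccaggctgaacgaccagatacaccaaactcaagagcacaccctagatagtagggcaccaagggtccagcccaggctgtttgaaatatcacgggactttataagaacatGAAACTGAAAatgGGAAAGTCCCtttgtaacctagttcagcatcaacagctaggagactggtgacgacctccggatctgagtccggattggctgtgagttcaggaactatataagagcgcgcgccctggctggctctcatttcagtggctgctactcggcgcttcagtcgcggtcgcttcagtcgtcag
The shared Tap1 and Psmb9 window, and the windows of Tapbp, Psmb8, Psmb10 and Psme2, held neither motif. A match is a description of the sequence and was not tested against the expression values.

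All values below are log2 of a probe's intensity relative to the 75th percentile of its own array, so that 1 unit is a doubling. That percentile lay between 578.69 and 2118.13 intensity units, and 60.0% to 78.5% of probes were well above background on an array. It differed between groups, so the sizes of the changes depend on this scaling. Its mean log2 was 9.68 with IFN-γ plus LPS, 10.17 with IFN-γ and 9.99 with IL-4 plus LPS. With IL-4 it was 10.24, with LPS 10.01 and in untreated cells 10.63. The 9 genes were bright. Each was well above background on all 28 arrays and saturated on none, and their mean intensity stood at the 86.3rd (Tapbpl) to the 99.7th (B2m) percentile of the tested genes. The number of arrays limits the precision. The labels were checked on genes with well known responses: Retnla, an IL-4 target, was at 7.28 to 8.30 on the IL-4 arrays and at or below -6.60 on the others. Cxcl9, an IFN-γ target, was at 6.94 to 8.17 on the IFN-γ arrays and at or below 6.06 elsewhere, and Il6 was at or above 3.08 on the LPS arrays and at or below -0.997 without LPS. The deposited value table was not used, because 13 of its 28 columns matched the scanner signals of an array from another group best.

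The macrophage list (Adgre1, Csf1r, Cd68, Itgam, Mertk, Lyz2, Fcgr1 and Cd14) had 8 of 8 genes above background on every array of 5 groups and 7 of 8 on every untreated array. Its summed level ran from 1454.59 to 1617.71 times the 75th percentile with IFN-γ plus LPS, 880.569 to 1352.63 with IFN-γ, 915.594 to 1062.52 with IL-4 plus LPS, 511.908 to 947.341 with IL-4, 1066.46 to 1382.66 with LPS and 553.51 to 786.71 in untreated cells. Summed markers of other cells were lower and moved with treatment. The 7 neutrophil markers on the array had the largest of these sums, from 12.7 to 49.1, with overlapping ranges in all 6 groups. The 4 osteoclast markers summed to 21.1 to 22.3 with IFN-γ plus LPS, 4.68 to 12.3 with IFN-γ, 12.1 to 18.7 with IL-4 plus LPS, 9.004 to 16.3 with IL-4, 2.21 to 3.75 with LPS and 0.666 to 1.03 in untreated cells. The 5 dendritic cell markers summed to 3.55 to 11.3 with IFN-γ plus LPS, 0.417 to 1.52 with IFN-γ, 1.02 to 2.37 with IL-4 plus LPS, 0.416 to 0.471 with IL-4, 1.29 to 8.13 with LPS and 0.277 to 0.486 in untreated cells. The 5 B cell markers summed to 3.15 to 7.12 with IL-4 plus LPS, against 1.297 to 2.64 with IL-4 and 1.16 to 2.41 with LPS, and stood at 2.13 to 4.22 in untreated cells. The 5 T cell markers summed to 0.861 to 3.498 with IL-4 plus LPS and 1.39 to 4.96 with LPS, against 0.203 to 0.443 in untreated cells. The NK cell, mast cell, erythroid and stromal lists summed to at most 0.865 on any array. Of the 4 NK cell markers, Gzma was above background on 0 arrays, Ncr1 on 2, Prf1 on 9 and Klrb1c on 23. The part of these cells in the results was not tested, and in bulk RNA a change in cell number and a change in RNA per cell cannot be told apart.

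**Figure D1:**
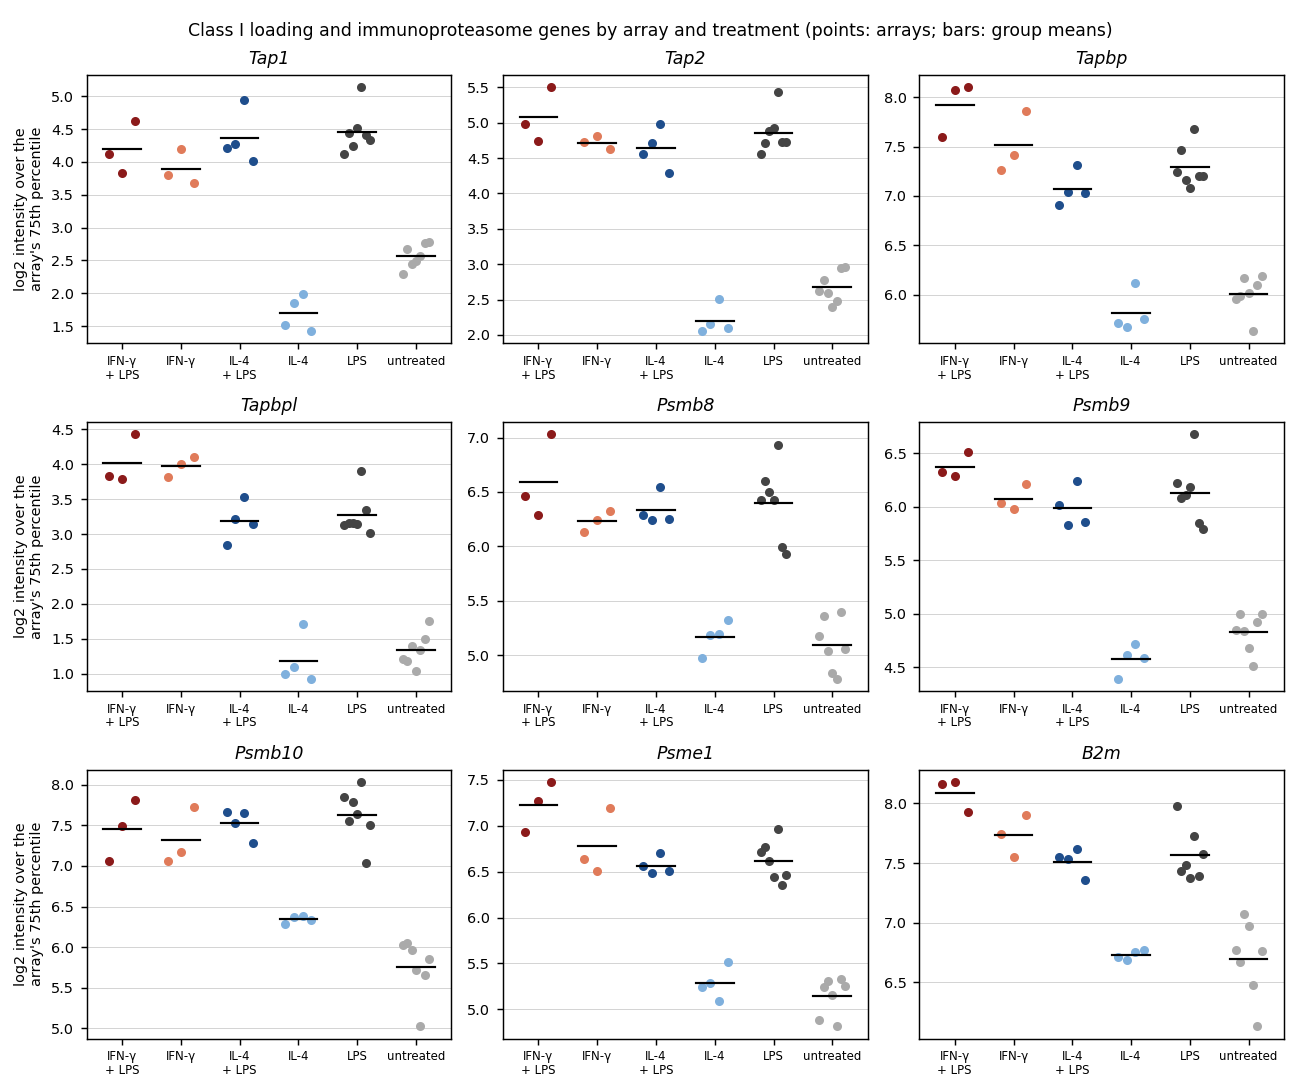
Level of each class I loading and immunoproteasome gene on every array (log2 intensity over the array's 75th percentile, vertical axis), by treatment from IFN-γ plus LPS on the left to untreated on the right. Points are arrays and bars are group means. In every panel the untreated and IL-4 arrays lie below the arrays of the other 4 groups.

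IFN-γ alone raised all 9 genes above untreated cells. Tapbpl, the TAPBPR chaperone that edits the peptides of class I molecules, rose most, by 6.18-fold, and B2m, the light chain common to all class I molecules, rose least, by 2.06-fold. All 9 passed limma's moderated test at adjusted p under 0.05, the threshold for a call throughout, with 12.8% of all tested genes called higher, 13.1% lower and 25.9% in either direction. Every IFN-γ array was above every untreated array for 9 of 9 genes, against 11.7% of all genes. The median change of the 9 genes was 1.51, and that of all tested genes was -0.28. The comparisons of IFN-γ, IL-4 and LPS with untreated cells share the untreated arrays.

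The peptide transporter is a dimer of TAP1 and TAP2. Tap1 stood at 3.81, 4.19 and 3.68 on the IFN-γ arrays and between 2.29 and 2.79 with a median of 2.57 on the untreated arrays. The groups did not overlap, and the change was 1.32 ± 0.22 (SE, limma adjusted p = 5.08e-05). Tap2 stood at 4.72, 4.81 and 4.62 with IFN-γ and between 2.39 and 2.96 with a median of 2.62 in untreated cells. Its 3 IFN-γ arrays lay within a narrow band and all above the untreated ones, and it rose by 2.03 ± 0.19 (SE, limma adjusted p = 1.41e-08).

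The chaperones behaved alike in direction. Tapbpl was at 3.82, 4.00 and 4.11 with IFN-γ and between 1.04 and 1.76 with a median of 1.34 in untreated cells, a change of 2.63 ± 0.21 (SE, limma adjusted p = 6.76e-10). Tapbp encodes tapasin, which bridges the transporter and the empty class I molecule. It was at 7.26, 7.41 and 7.86 with IFN-γ and between 5.63 and 6.19 with a median of 6.01 in untreated cells, a change of 1.51 ± 0.17 (SE, limma adjusted p = 2.03e-07). A second, dimmer Tapbp probe gave 1.46.

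The inducible catalytic subunits are Psmb8 (β5i), Psmb9 (β1i) and Psmb10 (β2i). Psmb8 was at 6.13, 6.25 and 6.33 with IFN-γ and between 4.78 and 5.40 with a median of 5.05 in untreated cells and rose by 1.14 ± 0.19 (SE, limma adjusted p = 6.87e-05). Psmb9 was at 6.04, 5.98 and 6.21 with IFN-γ and between 4.52 and 5.00 with a median of 4.85 in untreated cells and rose by 1.25 ± 0.16 (SE, limma adjusted p = 1.66e-06). Psmb10 was at 7.06, 7.17 and 7.72 with IFN-γ and between 5.03 and 6.05 with a median of 5.85 in untreated cells and rose by 1.56 ± 0.22 (SE, limma adjusted p = 5.65e-06). None of the 3 subunits had an IFN-γ array within the untreated range.

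Psme1 encodes PA28α, a part of the ring that caps the proteasome and opens its channel. It was at 6.64, 6.51 and 7.20 with IFN-γ and between 4.81 and 5.33 with a median of 5.25 in untreated cells and rose by 1.64 ± 0.17 (SE, limma adjusted p = 6.88e-08). The probe shared by Psme2 and its copy, which would report PA28β, was at 7.50, 7.49 and 8.21 with IFN-γ and between 5.80 and 6.76 with a median of 6.38 in untreated cells, a change of 1.35. B2m was at 7.74, 7.55 and 7.91 with IFN-γ and between 6.13 and 7.07 with a median of 6.76 in untreated cells and rose by 1.04 ± 0.17 (SE, limma adjusted p = 3.64e-05). On the 2 slides that held both groups, all 18 differences between IFN-γ and untreated arrays were above 0, from 0.58 to 2.96. The call of B2m was lost under quantile normalization (0.42, limma adjusted p = 0.0827) and without scaling between arrays (0.59, limma adjusted p = 0.158). Over the alternatives the IFN-γ change went as low as 0.68 for Psmb8, 0.79 for Psmb9 and 0.86 for Tap1, all still called.

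LPS for 4 h also raised all 9 genes above untreated cells, by 1.83-fold for B2m to 4.50-fold for Tap2. All 9 were called higher, where 20.9% of all tested genes were, 21.6% were called lower and 42.5% in either direction. No LPS array overlapped an untreated array for any of the 9 genes, against 12.7% of all genes with every LPS array above. The median change was 1.48 for the 9 genes and 0.06 for all tested genes.

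Tap2 had the largest LPS change of the 9 genes. Tap1 was between 4.13 and 5.14 with a median of 4.41 on LPS arrays and between 2.29 and 2.79 with a median of 2.57 on untreated arrays, and rose by 1.88 ± 0.17 (SE, limma adjusted p = 8.72e-10). Tap2 was between 4.56 and 5.44 with a median of 4.73 on LPS arrays and between 2.39 and 2.96 with a median of 2.62 on untreated arrays, and rose by 2.17 ± 0.15 (SE, limma adjusted p = 6.92e-12). For both genes every LPS array lay above the untreated range. LPS replicate E stood above the other LPS arrays, at 5.14 for Tap1 (next 4.51) and 5.44 for Tap2 (next 4.92). Tapbpl was between 3.02 and 3.90 with a median of 3.16 with LPS and between 1.04 and 1.76 with a median of 1.34 in untreated cells (1.92 ± 0.16, SE, limma adjusted p = 2.57e-10). Tapbp was between 7.08 and 7.68 with a median of 7.20 with LPS and between 5.63 and 6.19 with a median of 6.01 in untreated cells (1.28 ± 0.13, SE, limma adjusted p = 7.95e-09).

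Among the proteasome genes Psmb10 rose most with LPS. It lay between 7.03 and 8.03 with a median of 7.63 on LPS arrays and between 5.03 and 6.05 with a median of 5.85 on untreated arrays, a change of 1.87 ± 0.17 (SE, limma adjusted p = 9.69e-10). Psmb8 lay between 5.93 and 6.93 with a median of 6.42 with LPS and between 4.78 and 5.40 with a median of 5.05 in untreated cells, and rose by 1.31 ± 0.15. Psmb9 lay between 5.79 and 6.68 with a median of 6.11 with LPS and between 4.52 and 5.00 with a median of 4.85 in untreated cells, and rose by 1.30 ± 0.12. The lowest LPS array of each subunit stood above the highest untreated array. Psme1, the PA28α gene, lay between 6.35 and 6.97 with a median of 6.62 with LPS and between 4.81 and 5.33 with a median of 5.25 in untreated cells, and rose by 1.48 ± 0.13. The limma adjusted p was 6.14e-08 for Psmb8, 2.63e-09 for Psmb9 and 8.85e-10 for Psme1. The probe shared by Psme2 and its copy lay between 7.27 and 7.98 with a median of 7.86 with LPS and changed by 1.40.

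B2m had the smallest LPS change, 0.87 ± 0.13 (SE, limma adjusted p = 3.59e-06), with LPS arrays between 7.37 and 7.98 with a median of 7.49 and untreated arrays between 6.13 and 7.07 with a median of 6.76. Its other 2 probes changed by 0.79 and 1.33. This call depended on the scaling of the arrays: the change was 0.08 under quantile normalization (limma adjusted p = 0.652) and 0.26 without scaling (limma adjusted p = 0.424). Over the alternatives the LPS change went as low as 0.53 for Tapbp, 0.55 for Psmb8 and 0.55 for Psmb9, all still called. On the 5 slides that held both groups, all 45 differences between LPS and untreated arrays were above 0, from 0.60 to 2.34.

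IL-4 alone moved 1 of the 9 genes past the threshold. Tap1 fell, where 5.54% of tested genes were called lower, 5.85% higher and 11.4% in either direction. A count of 1 of 9 is near that last share. Tap1 was at 1.51, 1.85, 1.99 and 1.42 on the IL-4 arrays and between 2.29 and 2.79 with a median of 2.57 on the untreated arrays, so that every IL-4 array lay below every untreated one (6.09% of all genes). The change was -0.88 ± 0.20 (SE, limma adjusted p = 0.00306), and -0.82 and -0.78 on the 2 slides that held both groups. Median scaling ended the call (-0.80, limma adjusted p = 0.0636).

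Tap2 was at 2.05, 2.16, 2.51 and 2.10 with IL-4 and between 2.39 and 2.96 with a median of 2.62 in untreated cells. The arrays overlapped, and the change of -0.48 ± 0.17 (SE) had a limma adjusted p of 0.081. With slide or scan day as a block, or under quantile normalization, Tap2 and Psmb9 were also called lower, which made 3, 3 and 4 genes in all. Psmb10 went the other way, at 6.28, 6.38, 6.39 and 6.34 with IL-4 and between 5.03 and 6.05 with a median of 5.85 in untreated cells. Every IL-4 array was above every untreated one (6.63% of all genes), and the change of 0.59 ± 0.20 (SE) had a limma adjusted p of 0.0553. One untreated array, of experiment E, lay far below the other 6 for Psmb10. When 1 array was left out, the call passed only without untreated replicate A or B, and not without E. On the 2 slides that held both groups Psmb10 differed by 0.25 and 0.32.

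The other 6 genes were not called between IL-4 and untreated arrays. Tapbpl was at 0.99, 1.1002, 1.71 and 0.93 with IL-4 and between 1.04 and 1.76 with a median of 1.34 in untreated cells, and Tapbp at 5.71, 5.67, 6.12 and 5.75 with IL-4 and between 5.63 and 6.19 with a median of 6.01 in untreated cells. Psmb8 was at 4.98, 5.19, 5.199 and 5.32 with IL-4 and between 4.78 and 5.40 with a median of 5.05 in untreated cells. For these genes the arrays overlapped, and the changes were -0.16 for Tapbpl, -0.19 for Tapbp and 0.08 for Psmb8. Psmb9 was at 4.39, 4.62, 4.72 and 4.59 with IL-4 and between 4.52 and 5.00 with a median of 4.85 in untreated cells, with a change of -0.25. Psme1 was at 5.24, 5.29, 5.09 and 5.52 with IL-4 and between 4.81 and 5.33 with a median of 5.25 in untreated cells, with a change of 0.14. B2m was at 6.71, 6.68, 6.76 and 6.77 with IL-4 and between 6.13 and 7.07 with a median of 6.76 in untreated cells, with a change of 0.04. Its probes disagreed here, since the dimmest gave -0.93.

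**Figure D2:**
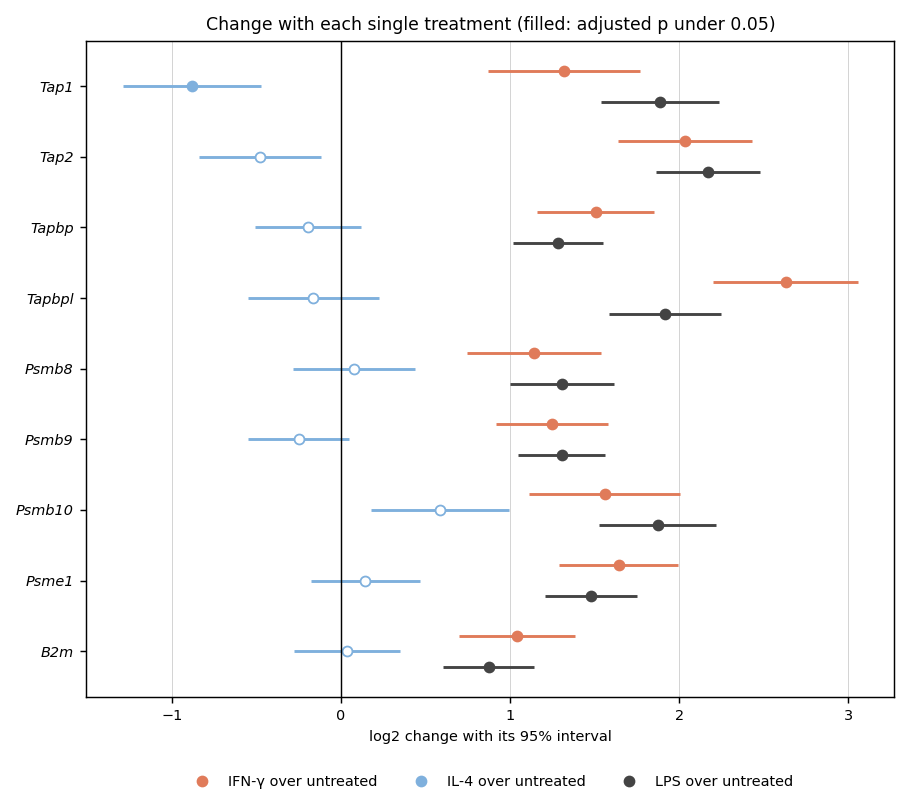
Change of each gene with IFN-γ, IL-4 or LPS alone over untreated cells (log2 change, horizontal axis, with its 95% interval from limma). Filled points passed an adjusted p of 0.05: all 9 genes with IFN-γ, all 9 with LPS, and Tap1 alone, below 0, with IL-4.

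A direct comparison of the cytokines followed. All 9 genes were higher with IFN-γ than with IL-4, where 13.1% of tested genes were (27.9% called in either direction), and no array overlapped for any of them (15% of all genes had every IFN-γ array above). The differences ran from 0.97 for Psmb10 (limma adjusted p = 0.00314) to 2.79 ± 0.23 (SE) for Tapbpl. Tap1 differed by 2.20 and Tap2 by 2.51. No slide held both groups. On the 1 scan day they shared, with 1 array of each group, all 9 differences were above 0, from 1.00 to 3.18. These are the same arrays as in the check by experiment letter below. The call of B2m was lost without scaling between arrays (0.94, limma adjusted p = 0.0626). The 2 groups share 1 experiment letter, and in its arrays alone, 1 a group and assumed to vary like the other groups, 6 genes were called. There B2m (1.14, limma adjusted p = 0.0844), Psmb10 (1.38, limma adjusted p = 0.101) and Psmb8 (1.004, limma adjusted p = 0.236) missed the threshold.

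LPS on IL-4-primed cells raised all 9 genes above IL-4 alone, where 15% of tested genes were called higher and 31.3% in either direction. Tap1 was at 4.21, 4.27, 4.94 and 4.01 with IL-4 plus LPS and 1.51, 1.85, 1.99 and 1.42 with IL-4, a change of 2.67 ± 0.22 (SE, limma adjusted p = 5.87e-10) or 6.36-fold. Tap2 was at 4.56, 4.71, 4.99 and 4.29 with IL-4 plus LPS and 2.05, 2.16, 2.51 and 2.10 with IL-4, a change of 2.43 ± 0.20 (SE). Tapbpl was at 2.85, 3.21, 3.52 and 3.15 with IL-4 plus LPS and 0.99, 1.1002, 1.71 and 0.93 with IL-4, and rose by 2.00. All 9 genes had every IL-4 plus LPS array above every IL-4 array, against 14.5% of all genes.

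The remaining genes rose by less. Tapbp was at 6.91, 7.04, 7.31 and 7.03 with IL-4 plus LPS and 5.71, 5.67, 6.12 and 5.75 with IL-4, and rose by 1.26. Psmb9 was at 6.02, 5.83, 6.24 and 5.86 with IL-4 plus LPS and 4.39, 4.62, 4.72 and 4.59 with IL-4, and rose by 1.41. Psmb8 was at 6.28, 6.25, 6.55 and 6.25 with IL-4 plus LPS and 4.98, 5.19, 5.199 and 5.32 with IL-4, and rose by 1.16. These gaps exceeded the spread of either group. Psmb10 was at 7.66, 7.52, 7.65 and 7.28 with IL-4 plus LPS and 6.28, 6.38, 6.39 and 6.34 with IL-4, and rose by 1.19. Psme1 was at 6.56, 6.48, 6.71 and 6.51 with IL-4 plus LPS and 5.24, 5.29, 5.09 and 5.52 with IL-4, and rose by 1.28. B2m, the light chain, was at 7.55, 7.53, 7.61 and 7.36 with IL-4 plus LPS and 6.71, 6.68, 6.76 and 6.77 with IL-4, and rose by 0.78 ± 0.17 (SE, limma adjusted p = 0.000728). The other 2 B2m probes gave 0.77 and, for the dimmest, 1.88. The shared Psme2 probe was at 7.86, 7.87, 7.61 and 7.86 with IL-4 plus LPS and 6.51, 6.59, 6.34 and 6.79 with IL-4. The B2m call was lost under normexp, quantile and median scaling and without scaling. On the 4 slides that held both groups, all 36 differences were above 0, from 0.59 to 2.95.

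The levels reached with IL-4 plus LPS were compared with those of LPS alone. None of the 9 genes was called between IL-4 plus LPS and LPS, where 8.99% of tested genes were, and none had an unadjusted p under 0.05 in limma. With only 9 genes, a count of none is near that share. Differences ran from -0.22 for Tap2 to -0.05 for B2m. The 95% interval for Tap1, the gene lowered by IL-4 alone, was -0.51 to 0.31. The small differences mostly had the same sign within batches. The 9 genes share these arrays, and the scan days reuse the arrays of the slides, so the tallies are not independent. On the 4 slides that held both groups 6 of 36 differences were above 0, from -0.45 to 0.18, and on the 3 scan days 1 of 27 was. Deviations of arrays on the same slide correlated at 0.503 to 0.816 (4 pairs), and with slide as a block Psmb9 was called lower (-0.28, limma adjusted p = 0.0431).

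The test of whether the LPS change differed between IL-4-primed and unprimed cells called 0 of the 9 genes in limma, where 1.63% of tested genes were called, and 2 of the 9 had an unadjusted p under 0.05. A count of 0 of 9 is near that share. Tap1 changed by 0.78 ± 0.28 more with LPS after IL-4 (SE, 95% interval 0.21 to 1.36, limma adjusted p = 0.258). For Psmb10 the LPS change was smaller after IL-4, with a difference of -0.69 ± 0.28 (SE, limma adjusted p = 0.413). With slide or scan day as a block both passed.

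LPS on IFN-γ-primed cells gave small changes from the level with IFN-γ alone, from 0.03 to 0.45 on the brightest probe of each gene. Of the 9 genes, 0 were called between IFN-γ plus LPS and IFN-γ in limma, where 12% of tested genes were called, and 1, Psme1, had an unadjusted p under 0.05. With only 9 genes, a count of 0 is near that share. Tap1 was at 4.12, 3.83 and 4.63 with IFN-γ plus LPS and 3.81, 4.19 and 3.68 with IFN-γ, a change of 0.30 with a 95% interval of -0.23 to 0.83. Tap2 was at 4.98, 4.74 and 5.51 with IFN-γ plus LPS and 4.72, 4.81 and 4.62 with IFN-γ, a change of 0.36 (-0.11 to 0.83). For both transporter genes the arrays of the groups overlapped.

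Tapbpl was at 3.82, 3.78 and 4.43 with IFN-γ plus LPS and 3.82, 4.00 and 4.11 with IFN-γ, a change of 0.03 (95% interval -0.47 to 0.54). Tapbp was at 7.59, 8.07 and 8.11 with IFN-γ plus LPS and 7.26, 7.41 and 7.86 with IFN-γ, a change of 0.41. The dimmer Tapbp probe gave 0.09. Psmb10 was at 7.06, 7.48 and 7.81 with IFN-γ plus LPS and 7.06, 7.17 and 7.72 with IFN-γ, a change of 0.14 (95% interval -0.39 to 0.67). For Tapbpl and Psmb10 the intervals reach to both sides of 0.

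Psmb8 was at 6.46, 6.29 and 7.03 with IFN-γ plus LPS and 6.13, 6.25 and 6.33 with IFN-γ, a change of 0.36. Psmb9 was at 6.32, 6.29 and 6.52 with IFN-γ plus LPS and 6.04, 5.98 and 6.21 with IFN-γ, a change of 0.30. Psme1 was at 6.93, 7.27 and 7.48 with IFN-γ plus LPS and 6.64, 6.51 and 7.20 with IFN-γ, a change of 0.45 ± 0.20 (SE, limma adjusted p = 0.177). For Psmb8 and Psme1 the arrays of the groups overlapped. B2m was at 8.16, 8.18 and 7.92 with IFN-γ plus LPS and 7.74, 7.55 and 7.91 with IFN-γ, a change of 0.35. Its other 2 probes gave 0.29 and, for the dimmest, 0.90. The shared Psme2 probe was at 7.94, 8.07 and 8.31 with IFN-γ plus LPS. Psmb9 and B2m were the 2 genes for which every IFN-γ plus LPS array lay above every IFN-γ array, against 13.1% of all genes. Within slides 23 of 27 differences were above 0, from -0.36 to 0.95, and with slide as a block B2m, Psme1 and Tapbp were called higher.

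The test of whether the LPS change differed between IFN-γ-primed and unprimed cells called 8 of the 9 genes lower and none higher, where 5.29% of tested genes were called lower, 3.08% higher and 8.38% in either direction. The difference was -1.88 ± 0.29 for Tapbpl (SE, limma adjusted p = 0.000111) and -1.81 ± 0.27 for Tap2 (SE, limma adjusted p = 7.38e-05). It was -1.73 ± 0.31 for Psmb10 (SE, limma adjusted p = 0.000479) and -1.58 ± 0.31 for Tap1 (SE, limma adjusted p = 0.00123). These are the 4 genes that LPS alone had raised most, and the difference is computed from the same LPS and untreated arrays.

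The difference was -1.03 ± 0.24 for Psme1 (SE, limma adjusted p = 0.0066), -1.01 ± 0.23 for Psmb9 (SE, limma adjusted p = 0.00478), -0.95 ± 0.27 for Psmb8 (SE, limma adjusted p = 0.0285) and -0.87 ± 0.24 for Tapbp (SE, limma adjusted p = 0.0201). For B2m it was -0.52 ± 0.24 (SE, limma adjusted p = 0.23). With the replicate block, Psmb8 missed the threshold (limma adjusted p = 0.0626). With the mean over all probes of a gene, Tapbp was not called (-0.67, limma adjusted p = 0.613), and its dimmer probe gave -1.09. The count was 5 with normexp background correction, 4 with median scaling and 3 without scaling, all of them lower. It was 6 with quantile normalization, 7 in a fit of these groups only and 4 with shared experiment letters only. The median was -1.03 for the 9 genes and 0.07 for all tested genes.

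**Figure D3:**
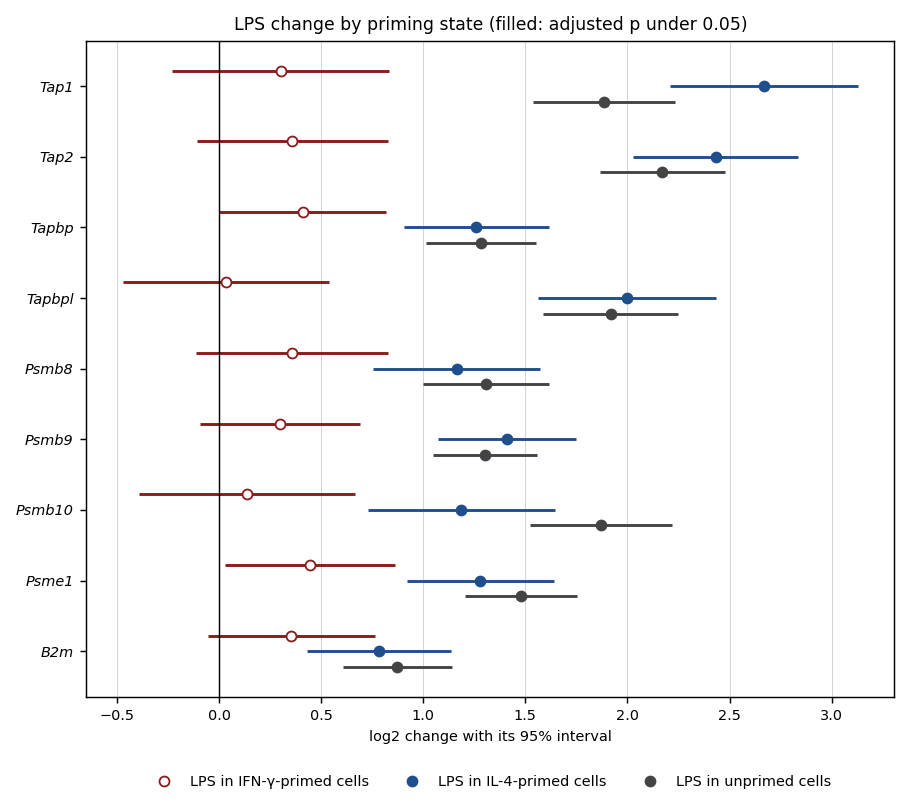
Change with LPS for each gene in cells primed with IFN-γ, primed with IL-4 or unprimed (log2 change, with its 95% interval from limma). The IFN-γ-primed values lie between 0.03 and 0.45, the IL-4-primed between 0.78 and 2.67 and the unprimed between 0.87 and 2.17.

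Levels with IFN-γ plus LPS were then compared with LPS alone. Tapbpl, Tapbp, Psme1 and B2m were higher with IFN-γ plus LPS, 4 of the 9 genes, where 10.8% of tested genes were called higher and 22.8% in either direction. Tapbpl was at 3.82, 3.78 and 4.43 with IFN-γ plus LPS and between 3.02 and 3.90 with a median of 3.16 with LPS, a difference of 0.74 ± 0.21 (SE, limma adjusted p = 0.00972). Tapbp was at 7.59, 8.07 and 8.11 with IFN-γ plus LPS and between 7.08 and 7.68 with a median of 7.20 with LPS, a difference of 0.63 ± 0.17 (SE, limma adjusted p = 0.0069). The dimmer Tapbp probe gave 0.38. Psme1 was at 6.93, 7.27 and 7.48 with IFN-γ plus LPS and between 6.35 and 6.97 with a median of 6.62 with LPS, a difference of 0.61 ± 0.17 (SE, limma adjusted p = 0.0103). In each of these genes the highest LPS array reached into the range with IFN-γ plus LPS. B2m was at 8.16, 8.18 and 7.92 with IFN-γ plus LPS and between 7.37 and 7.98 with a median of 7.49 with LPS, a difference of 0.52 ± 0.17 (SE, limma adjusted p = 0.0243), again with overlapping arrays.

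The other 5 genes were not called in this comparison. Tap1 was at 4.12, 3.83 and 4.63 with IFN-γ plus LPS and between 4.13 and 5.14 with a median of 4.41 with LPS, a difference of -0.27 (95% interval -0.71 to 0.18). Tap2 differed by 0.22, Psmb8 by 0.19, Psmb9 by 0.24 and Psmb10 by -0.18. The 4 calls were sensitive to the processing: none remained with normexp background correction, without scaling between arrays or in a fit of these groups only, and 2 remained with slide as a block, under quantile normalization, under median scaling and without IFN-γ plus LPS replicate G. Only 1 remained without IFN-γ plus LPS replicate F. With the mean over all probes of a gene, Tapbp (0.50, limma adjusted p = 0.341) and B2m (0.44, limma adjusted p = 0.106) were not called. On the 2 slides that held both groups, Tapbpl differed by 0.70 to 0.76, Tapbp by 0.35 to 0.87, Psme1 by 0.22 to 0.81 and B2m by 0.18 to 0.61.

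The same 4 genes were higher with IFN-γ plus LPS than with IL-4 plus LPS, where 11.8% of tested genes were called higher and 25.6% in either direction. The differences were 0.85 ± 0.19 for Tapbp (SE, limma adjusted p = 0.00118), 0.83 for Tapbpl (limma adjusted p = 0.00846), 0.66 for Psme1 (limma adjusted p = 0.0104) and 0.58 for B2m (limma adjusted p = 0.0225). The dimmer Tapbp probe gave 0.55, and with the mean over all probes of a gene Tapbp was not called (0.70, limma adjusted p = 0.192). Tap2 differed by 0.44 (limma adjusted p = 0.136) and Tap1 by -0.17. This comparison shares its IFN-γ plus LPS arrays with the one before, and its count fell to 2 without IFN-γ plus LPS replicate G and to 0 with normexp background correction, without scaling or in a fit of these groups only. A block for slide gave 5 genes called higher: the calls of B2m and Psme1 were lost, while Tap2 (0.67, limma adjusted p = 0.0141), Psmb8 (0.56, limma adjusted p = 0.0252) and Psmb9 (0.57, limma adjusted p = 0.00534) passed. A block for scan day gave 6: B2m was lost, and Tap2 (0.73), Psmb8 (0.48) and Psmb9 (0.57) again passed. Under median scaling Tap2 also passed (0.81, limma adjusted p = 0.0465). On the 1 scan day that held both groups, with 1 array of each, all 9 differences were above 0, from 0.54 to 1.28. These arrays are also those of the only experiment letter the groups share, and no slide held both groups. With the replicate block Tapbpl missed the threshold (0.75, limma adjusted p = 0.0501).

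**Figure D4:**
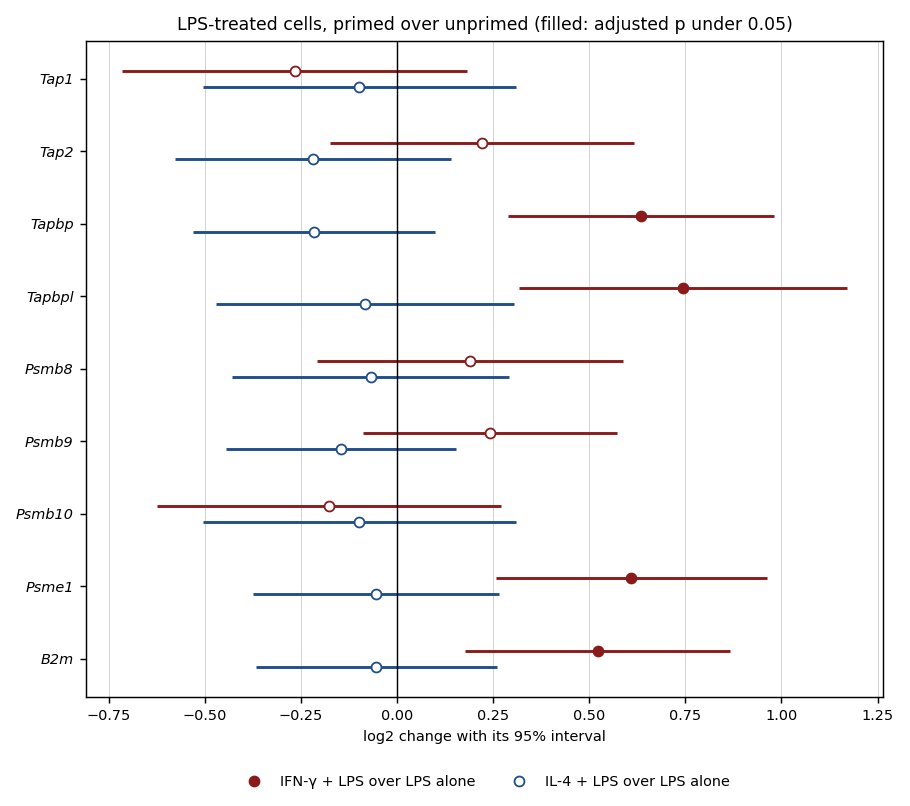
Difference of each gene between primed LPS-treated cells and cells given LPS alone (log2 change, with its 95% interval from limma), for IFN-γ and IL-4 priming. Filled points passed an adjusted p of 0.05: Tapbp, Tapbpl, Psme1 and B2m with IFN-γ, and no gene with IL-4.

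By group mean, the order of the 6 treatments differed between genes. IL-4 gave the lowest mean for Tap1, Tap2, Tapbp, Tapbpl and Psmb9, and untreated cells gave the lowest for Psmb8, Psmb10, Psme1 and B2m. Of these bottom pairs, only the arrays of Tap1 and of Psmb10 did not overlap. The highest mean was with IFN-γ plus LPS for 7 genes and with LPS alone for Tap1 and Psmb10. At the top, B2m alone had arrays with IFN-γ plus LPS (lowest 7.92) that all lay above those of the next group, IFN-γ (highest 7.91), by a margin far smaller than the spread of either group.

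Variation between arrays of a group was then compared across genes. After group means were removed, the correlation between 2 of the 9 genes over 28 arrays had a median of 0.536 over 36 pairs. It ran from -0.208 for B2m and Tap1 to 0.880 for Tap1 and Tap2, the 2 chains of the transporter. All pairs share the scaling of each array.

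The genes whose level over the 28 arrays was most like the mean profile of the 9 genes, among 21890 others, were C3 (Pearson r = 0.983), Batf2 (0.980), Nod1 (0.980), Mmp25 (0.978), Gbp2 (0.975), Gbp3 (0.971), Rnf14 (0.971), Ccl5 (0.971), AW112010 (0.970) and Cfb (0.970). C3 and Cfb encode complement proteins, Gbp2 and Gbp3 guanylate-binding proteins and Ccl5 a chemokine. These values describe likeness across the 6 groups and were not tested.

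Each inducible subunit takes the place of a standard one: Psmb8 that of Psmb5, Psmb9 that of Psmb6 and Psmb10 that of Psmb7. The standard subunits rose too, all 3 with IFN-γ and all 3 with LPS, by 0.67 (Psmb5), 0.82 (Psmb6) and 0.97 (Psmb7) with IFN-γ and by 0.62 (Psmb5), 0.89 (Psmb6) and 0.80 (Psmb7) with LPS. Of all tested genes 12.8% rose with IFN-γ and 20.9% with LPS. With IL-4 only Psmb6 was called, higher by 0.61 (limma adjusted p = 0.0287), where 11.4% of tested genes were called. In the interaction of IFN-γ with LPS 0 of the 3 standard subunits were called by limma, where 8.38% of tested genes were. With only 3 genes this count is near that share. The differences were -0.48 for Psmb5, -0.11 for Psmb6 and -0.37 for Psmb7.

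The change of each inducible subunit was then set against that of its standard partner on the same array, which removes the scaling between arrays. These pairs were chosen after the data had been seen, and 15 tests were adjusted together. With LPS, Psmb10 changed by 1.07 more than Psmb7 and Psmb8 by 0.69 more than Psmb5 (exact two-sided permutation test, adjusted p = 0.00291 for both). Psmb9 changed by 0.41 more than Psmb6 (exact permutation test, adjusted p = 0.04995). With IL-4, Psmb9 changed by -0.86 relative to Psmb6 (exact permutation test, adjusted p = 0.0152). The other IL-4 differences, -0.44 for Psmb8 against Psmb5 and 0.46 for Psmb10 against Psmb7, did not pass (exact permutation test, adjusted p = 0.0606 and 0.0909). With IFN-γ the pairs differed by 0.47 (Psmb8 and Psmb5), 0.42 (Psmb9 and Psmb6) and 0.59 (Psmb10 and Psmb7), and none passed (exact permutation test, adjusted p = 0.0606, 0.0909 and 0.167). With 3 IFN-γ and 7 untreated arrays that test cannot give a p below 0.0167.

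Psme1 was set against Psme3 in the same way, since Psme3 encodes PA28γ, which forms the nuclear version of the cap. With LPS Psme1 changed by 1.34 more than Psme3 (exact permutation test, adjusted p = 0.00291). With IFN-γ it changed by 0.20 more and with IL-4 by 0.10 more (exact permutation test, adjusted p = 0.688 for both). Psme3 itself changed by 0.14 with LPS (limma adjusted p = 0.627) and rose by 1.45 with IFN-γ (limma adjusted p = 7.24e-05). Tap1 and Psmb9, the pair that starts from the window printed above, differed in size of response. With LPS Tap1 changed by 0.58 more than Psmb9 (exact permutation test, adjusted p = 0.00437), and with IL-4 by -0.63 relative to it (exact permutation test, adjusted p = 0.0152). With IFN-γ the pair differed by 0.07 (exact permutation test, adjusted p = 0.7).

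The genes around these 9 in the pathway were counted in lists. Each count is read against all tested genes, of which 12.8% rose and 13.1% fell with IFN-γ, 5.85% rose and 5.54% fell with IL-4, and 20.9% rose and 21.6% fell with LPS. Class I heavy chains pair with B2m, and of 17 tested 14 rose and 1 fell with IFN-γ (median 0.88), 0 rose and 4 fell with IL-4 (median -0.18), and 13 rose and 1 fell with LPS (median 0.73). The heavy chain H2-Q8 changed by 2.45 ± 0.18 with IFN-γ, -1.07 ± 0.16 with IL-4 and 2.57 ± 0.14 with LPS (SE). H2-T22 changed by 1.71 with IFN-γ, -0.74 with IL-4 and 1.71 with LPS, and H2-T24 by -1.26 with IL-4 and 1.49 with LPS. Heavy chain genes are close copies of each other, so a probe may read several. In the interaction of IFN-γ with LPS 4 of the 17 were called lower and 0 higher (5.29% and 3.08% of all tested genes), among them H2-T22 (-1.72), H2-T10 (-1.61) and H2-Q8 (-1.51).

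Partners in folding, trimming and loading made another list. Of 14 tested, 5 rose with IFN-γ and 9 with LPS, none fell in either, and 0 were called with IL-4, against 12.8% of all tested genes that rose with IFN-γ, 20.9% that rose with LPS and 11.4% called with IL-4. Erap1, the aminopeptidase that trims peptides inside the endoplasmic reticulum, rose by 1.72 with IFN-γ and 1.07 with LPS. Lnpep, an endosomal aminopeptidase, rose by 1.79 with IFN-γ and 2.27 with LPS. Pdia3, the disulphide isomerase that partners tapasin, rose by 0.71 with IFN-γ, and the chaperone Calr changed by 0.23 with LPS (limma adjusted p = 0.363).

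Transcription factors that act on class I genes were counted next. Of 14 tested, 9 rose and 0 fell with IFN-γ, 1 rose and 3 fell with IL-4, and 10 rose and 2 fell with LPS, where 25.9%, 11.4% and 42.5% of all tested genes were called with IFN-γ, IL-4 and LPS. Irf1 rose by 3.17 ± 0.22 with IFN-γ and 2.58 ± 0.17 with LPS, and changed by 0.24 with IL-4 (limma adjusted p = 0.566). Stat2 fell by 1.24 and Irf9 by 0.59 with IL-4. Ciita, the activator of MHC class II genes, rose by 3.54 with IFN-γ and 2.48 with IL-4. In the interaction of IFN-γ with LPS 5 of the 14 were called lower (5.29% of all tested genes), among them Irf1 (-1.91, limma adjusted p = 0.000244) and Irf2 (-1.66, limma adjusted p = 0.00424).

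Other proteasome genes were counted in the same way. Of 15 other core subunits and assembly factors, 11 rose and 1 fell with IFN-γ, 3 rose and 0 fell with IL-4, and 10 rose and 1 fell with LPS. Over all tested genes 25.9% were called with IFN-γ, 11.4% with IL-4 and 42.5% with LPS. Pomp, the assembly factor for new proteasomes, rose by 0.90 with IFN-γ and 0.52 with LPS. Psma5 rose by 1.38 with IFN-γ and 1.41 with LPS. Of 21 genes of the 19S particle, which recognises tagged proteins, 15 rose and 0 fell with IFN-γ, 0 were called with IL-4, and 14 rose and 1 fell with LPS. Medians for the 19S list were 0.74 with IFN-γ, 0.24 with IL-4 and 0.55 with LPS.

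The 14 tested genes that lie beside Tap1, Tap2, Psmb8, Psmb9 and Tapbp in the class II region were counted too. With IFN-γ 10 rose and 0 fell, with IL-4 7 rose and 3 fell, and with LPS 6 rose and 1 fell. All tested genes were called at 25.9% with IFN-γ, 11.4% with IL-4 and 42.5% with LPS, so the share of these genes called with LPS was near that of all genes. H2-DMa and H2-DMb1, which load class II molecules, rose with IL-4 by 2.05 and 1.73. H2-DMb1 is the gene next to Psmb9, which changed by -0.25 with IL-4. H2-Ab1, a class II chain, rose by 2.82 with IFN-γ and 1.21 with LPS.

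**Figure D5:**
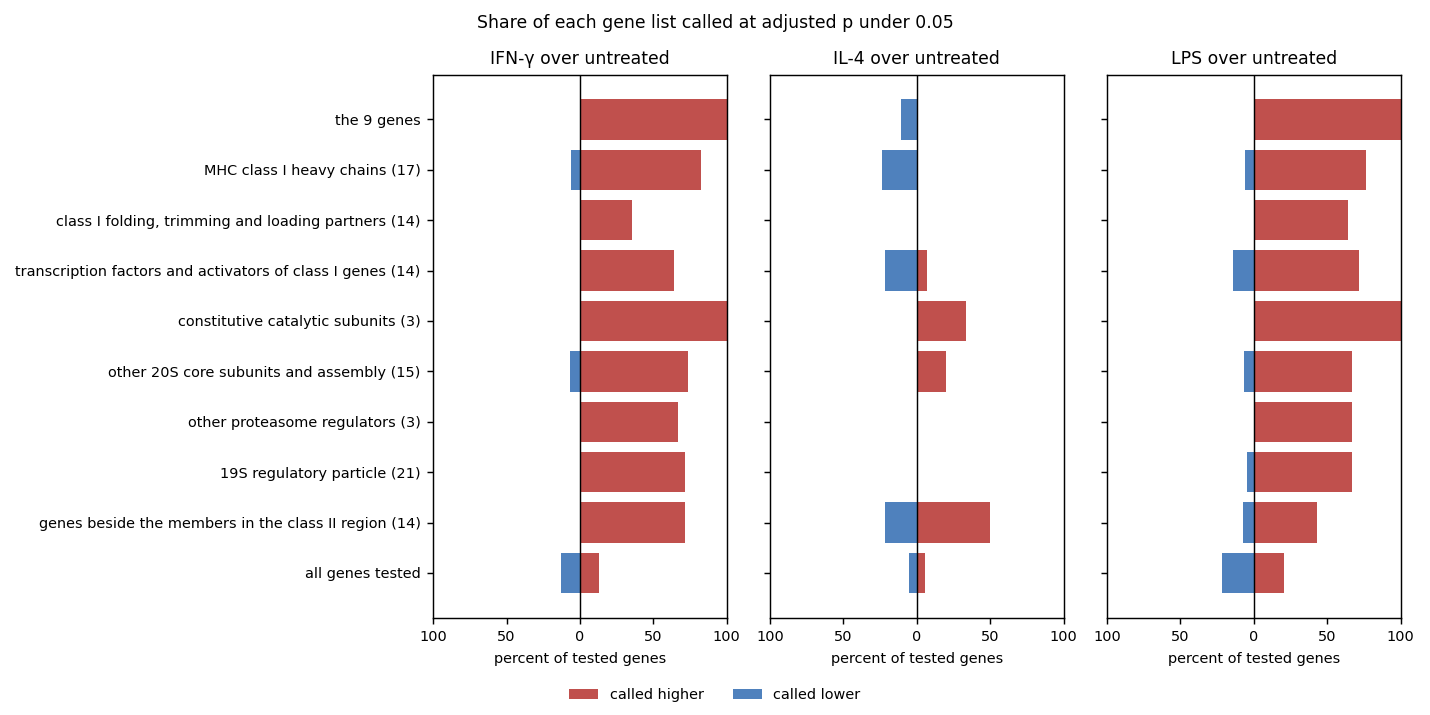
Share of each gene list called at an adjusted p under 0.05 with IFN-γ, IL-4 or LPS over untreated cells (percent of tested genes, called higher to the right of 0 and called lower to the left). The numbers of genes tested stand beside the list names, and the bottom bar gives all tested genes.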

How the data were processed

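Total RNA of 28 mouse macrophage cultures was labelled with Cy3 and hybridised to 1-colour Agilent arrays, per the labels' protocols. Per the submitters' processing notes the scans were read with Agilent Feature Extraction 9.5.1, and per the file headers (version 9.5.1.1) background subtraction was off and spatial detrending on. The deposited scanner files hold intensity (the processed signal). The deposited value table holds log2 values relative to the untreated columns, per the values themselves; its scaling is unknown. It was not used: of 28 columns 2 matched their own array best, and 13 matched an array of another group (r of at least 0.997 with the best match).

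Control spots and outlier-flagged spots (at most 414 an array) were left out, spots of a probe averaged, log2 taken, and each array's 75th percentile subtracted. Of 41174 gene probes, 22951 were named by accession, 6659 by symbol and 3109 by synonym through RefSeq, and 8455 kept the array's name. The brightest probe stood for a gene, tested where well above background on at least 3 arrays. A linear model with a mean for each of the 6 groups was fitted to the 28 arrays (limma 3.58.1, R 4.3.3), with Benjamini-Hochberg adjustment over all tested genes, a threshold of 0.05 and 95% intervals. The linear model was checked on simulated data for LPS over untreated only, with noise independent between arrays. The other comparisons, the interactions and the permutation tests were not checked this way. One gene and one promoter motif are not reported here. Named genes were the 10 class I genes, up to 4 called genes of largest change and 2 furthest from passing per list and comparison, fixed proteasome and activator genes, and the 10 genes most like the mean profile. The genes, lists and tests were chosen with earlier results of these data known.

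Slide (10) and scan day (5), as given in the files, were treated as batches. Deviations of IL-4 plus LPS and IL-4 arrays correlated at 0.152 to 0.729 within a letter (4 pairs) and at 0.394 to 0.729 within a slide. For IFN-γ plus LPS and IFN-γ arrays the range was 0.281 to 0.641 (3 pairs). Each of those letter pairs lay on 1 slide, so letter and slide cannot be told apart there. Letters did not pair LPS with untreated arrays (-0.497 to 0.164), where arrays on the same slide correlated at 0.417 to 0.645. Alternatives covered background correction, scaling, filters, probe choice, batches, replicate block, fewer groups and leaving out each array.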

Additional observations from a re-analysis of the deposited data

Results flagged for a closer look

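In 7 of the 40 sets of arrays looked at (10 probes in the 4 groups of 4 to 7 arrays), 1 array stood far from the rest of its group by Dixon's criterion. Chance meets it in about 1 of 20 independent sets, but these sets share arrays and the scaling of each array. The 75th percentile of LPS replicate E was the lowest of its group (773.105), and that of untreated replicate E the highest of all arrays (2118.13). In the LPS group, replicate E was the highest array for Tap1 (5.14, next 4.51), Tap2 (5.44, next 4.92) and Tapbpl (3.90, next 3.34). In the untreated group, replicate E was the lowest for Psmb10 (5.03, next 5.66) and Tapbp (5.63, next 5.96). In the IL-4 plus LPS group, replicate C was the highest for Psmb8 (6.55, next 6.28) and the lowest for the probe shared by Psme2 and its copy Psme2b (7.61, next 7.86). The comparison of LPS with untreated cells called all 9 genes without LPS replicate E and without untreated replicate E. Without IL-4 plus LPS replicate C, the comparison of IL-4 plus LPS with IL-4 called all 9 genes and that with LPS called none.

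The change with LPS differed between IFN-γ-primed and unprimed cells, by the interaction term in limma, for 8 of the 9 genes and for the shared Psme2b probe. The differences were -1.88 for Tapbpl, -1.81 for Tap2, -1.73 for Psmb10, -1.58 for Tap1, -1.03 for Psme1, -1.03 for Psme2b, -1.01 for Psmb9, -0.95 for Psmb8 and -0.87 for Tapbp.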

How the results depend on the processing

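Of the 754 values of called changes recomputed under alternatives other than leaving out an array, 0 changed direction and 83 missed the threshold. Leaving out 1 array at a time changed the direction of 0 of 649 and ended 19 calls. Uncalled changes turned direction in 89 of 676 values, and 29 became called, under alternatives other than leaving out an array. Leaving out 1 array turned 30 of 611 uncalled values, and 2 became called. These totals cover the 9 genes and the probe shared by Psme2 and its copy. Skipping the scaling between arrays was chosen after seeing the data.

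Counts of the 9 genes that moved by more than 1.5 times were these. With slide as a block, 3 were called for IL-4 over untreated, 3 for IFN-γ plus LPS over IFN-γ, 1 for IL-4 plus LPS over LPS (Psmb9, lower), 2 for IFN-γ plus LPS over LPS and 2 for the IL-4 interaction. With scan day as a block, 3 were called for IL-4, 2 for IFN-γ plus LPS over IFN-γ and 2 for the IL-4 interaction. With normexp, IFN-γ plus LPS over LPS and over IL-4 plus LPS had 0 each and the IFN-γ interaction 5. With quantile normalization IL-4 had 4 and IFN-γ plus LPS over LPS 2. With median scaling IL-4 had 0, IFN-γ plus LPS over LPS 2 and the IFN-γ interaction 4. Without scaling IL-4 had 2, the IFN-γ interaction 3, and IFN-γ plus LPS over LPS and over IL-4 plus LPS 0 each. A stricter filter on dim probes (14 arrays) and a trended robust eBayes gave 2 for IL-4, and the mean over probes gave 2 for IFN-γ plus LPS over LPS. With only the groups compared, IFN-γ plus LPS over LPS and over IL-4 plus LPS had 0 each. With shared experiments only, IFN-γ plus LPS over LPS had 1, the IFN-γ interaction 4 and IFN-γ plus LPS over IL-4 plus LPS 0; the last rests on 1 array a group, assumed to vary like the others. Leaving out 1 array gave 1 to 4 genes for IFN-γ plus LPS over LPS, 2 to 4 for IFN-γ plus LPS over IL-4 plus LPS, 1 to 2 for IL-4 and 6 to 8 for the IFN-γ interaction; the other counts did not move when an array was left out. Smaller moves also changed which genes were called: IFN-γ over IL-4 had 6 with shared experiments and 8 without scaling, IFN-γ plus LPS over IL-4 plus LPS had 5 with median scaling, 5 with a slide block and 6 with a scan day block, and the IFN-γ interaction had 6 with quantile normalization and 7 with only the groups compared. The replicate block moved no count of the 9 genes by more than 1.5 times and ended 2 calls, those of Psmb8 (-0.95) and Tapbpl (0.75) given above. The mean over probes also ended the call of Tapbp in the IFN-γ interaction and in IFN-γ plus LPS over IL-4 plus LPS.

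Directions turned for small changes. Tap1 in IFN-γ plus LPS over IL-4 plus LPS was 0.0367 with slide, 0.0636 with scan day as a block, 0.20 with median scaling and 0.62 in shared experiments (-0.39 to 0.0266 leaving out 1 array). Tapbpl in IFN-γ plus LPS over IFN-γ was -0.33 with normexp, -0.20 with quantile, -0.0835 with median scaling and -0.46 without scaling (-0.17 to 0.15 leaving out 1 array). Psme1 there was -0.0474 without scaling, and B2m in IL-4 plus LPS over LPS ran from -0.0878 to 0.0146 leaving out 1 array. The cause was not tested.

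Counts over all tested genes moved more, lowest to highest over the alternatives. They were 5564 to 12948 for LPS (9522 in the report's model), 748 to 3946 for IL-4 (2552), 2685 to 7463 for IFN-γ (5797), 3589 to 11579 for IL-4 plus LPS over IL-4 (7020) and 782 to 6994 for IFN-γ plus LPS over IFN-γ (2685). They were 537 to 3844 for IL-4 plus LPS over LPS (2014), 2056 to 7587 for IFN-γ plus LPS over LPS (5112), 40 to 1074 for the IL-4 interaction (365) and 614 to 4177 for the IFN-γ interaction (1877). They were 1384 to 7067 for IFN-γ over IL-4 (6257) and 813 to 6805 for IFN-γ plus LPS over IL-4 plus LPS (5735). The share of called genes that were higher was 49.4% for IFN-γ and 49.2% for LPS, against 15.1% and 18.9% without scaling, and 77.4% for IFN-γ with median scaling. Without scaling the median of all genes was -0.74 with IFN-γ and -0.56 with LPS. The deposited value table, planned as an alternative, was not run.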
